A study of Mus musculus with 12 samples.

Results

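The genes described here are 10 genes of the cone phototransduction cascade, chosen by symbol (Opn1sw, Opn1mw, Gnat2, Gnb3, Gngt2, Pde6c, Pde6h, Cnga3, Cngb3 and Arr3). They cover its opsins, transducin subunits, phosphodiesterase subunits, channel subunits and arrestin. Gnb3 is not confined to cones, since ON bipolar cells also use it. The 10 genes are part of the 24340 in the deposited expression table. All 10 were among the 18509 genes above 0 in at least 1 library that entered the tests. RNA was sequenced from both retinas of 6 mice of the strain p16-3MR, 12 to 16 weeks old, which gave 12 libraries in 4 groups of 3. In every mouse the intraocular pressure (IOP) of 1 eye was raised to 85 to 90 mm Hg for 60 min with a saline infusion, while the other eye was left as the control. Mice 1, 2 and 5 then received ganciclovir (GCV, 25 mg/kg) daily for 3 days, and mice 3, 4 and 6 received sham injections of PBS, before the retinas were collected. All mice, controls included, carried the transgene, which places a viral thymidine kinase under the p16Ink4a promoter, so that GCV is toxic to cells in which that promoter is active. There was no group without the transgene and no retina from an untouched animal, since each control retina is the fellow eye of a treated one.

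Cones are the photoreceptors of daylight and color vision, and they are few beside the rods in a mouse retina. Light activates a cone opsin, which switches on the cone form of transducin, and transducin releases a phosphodiesterase from its inhibitory subunit so that it breaks down cyclic GMP. Cation channels held open by cyclic GMP then close, and arrestin binds the opsin to end the response. Rods run the same cascade with a separate set of genes, which makes those genes a natural comparison. Because whole retinas were sequenced, fewer cones and less RNA per cone cannot be told apart in any value below.

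The values are FPKM (fragments scaled by exon length and by library size), so that levels can be compared between genes. No unit is given for the table, and FPKM was inferred from its values. The depth of the libraries was estimated from their lowest values at 4010000 to 9060000 fragments, with the lowest in the IOP-treated retina of mouse 6, and the fewest fragments estimated behind any value of the 10 genes were 84, for Cnga3 in the IOP-treated retina of mouse 4. Gnat1, the alpha subunit of rod transducin, was at 9572 to 18196 FPKM in all 12 libraries, which are labelled as retina. Lens genes were summed to 72.2 to 230.1 FPKM in 5 control retinas and to 9570 FPKM in the control retina of mouse 1, against 322 to 8715 FPKM in IOP-treated retinas, so that lens RNA moved with IOP elevation in all mice but mouse 1. Its part in the results below was not tested. Nothing states whether the 2 eyes of a mouse were processed together. The p-values of the main fit (limma) measure the spread between retinas within groups, with all 12 treated as independent. Those of the fit with the mouse as a block and of the exact tests measure the spread of eye differences between mice.

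In the 6 control retinas the cone genes covered a wide range of levels. Pde6h was the most abundant, at 496 ± 63.3 FPKM (SD, n = 6), followed by Gngt2 at 344 ± 42.6, Opn1mw at 290 ± 65.9, Gnb3 at 253 ± 23.2, Opn1sw at 248 ± 76.0, Gnat2 at 149 ± 20.2, Arr3 at 126 ± 19.2 and Pde6c at 74.5 ± 11.2 FPKM. Both channel subunits were far lower, with Cnga3 at 8.38 ± 0.806 and Cngb3 at 8.08 ± 0.848 FPKM. The ranges of neighbors in this order overlapped except between Pde6h and Gngt2, between Arr3 and Pde6c, and between Pde6c and Cnga3. Opn1sw varied most between control retinas, with a coefficient of variation of 30.6%, and Gnb3 least, with 9.16%.

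To ask how the cone cascade stood 3 days after IOP elevation, IOP-treated and control retinas were compared without GCV, with GCV, and averaged over both. Gnb3 rose in the IOP-treated eye of 6 of 6 mice, by 1.62 to 3.39 times. Arr3 was lower in the IOP-treated eye of 6 of 6 mice, at 0.215 to 0.927 of the control eye. For both genes the 6 IOP-treated and the 6 control retinas did not overlap. The other 8 genes did not pass the test in any of these comparisons, and their IOP-treated and control retinas overlapped. Genes outside the cascade, Impg2 among them, also had separate IOP-treated and control retinas. The share of all genes that did so was not counted.

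In the fit without GCV, 1 cone gene of 10 was called by limma at an adjusted p under 0.05, and it was higher (Gnb3), where 1.65% of all genes passed, 1.42% higher and 0.232% lower. With GCV it was again Gnb3 alone, where 1.80% of all genes passed, 1.65% higher and 0.157% lower. Averaged over the 6 mice, 2 of the 10 genes passed, 1 higher (Gnb3) and 1 lower (Arr3), where 12.2% of all genes passed, 6.76% higher and 5.44% lower, so a count of 2 in 10 is not far above the background. The median log2 change of the 10 genes was -0.28 without GCV, -0.11 with GCV and -0.22 averaged, beside 0.00 over all genes without GCV and 0.01 averaged. When the mouse was added to the fit as a block, Gnb3 no longer passed without GCV (adjusted p = 0.0940) or with GCV (adjusted p = 0.0970), whereas the averaged comparison still held Gnb3 (adjusted p = 0.0164) and Arr3 (adjusted p = 0.0387).

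**Figure D1:**
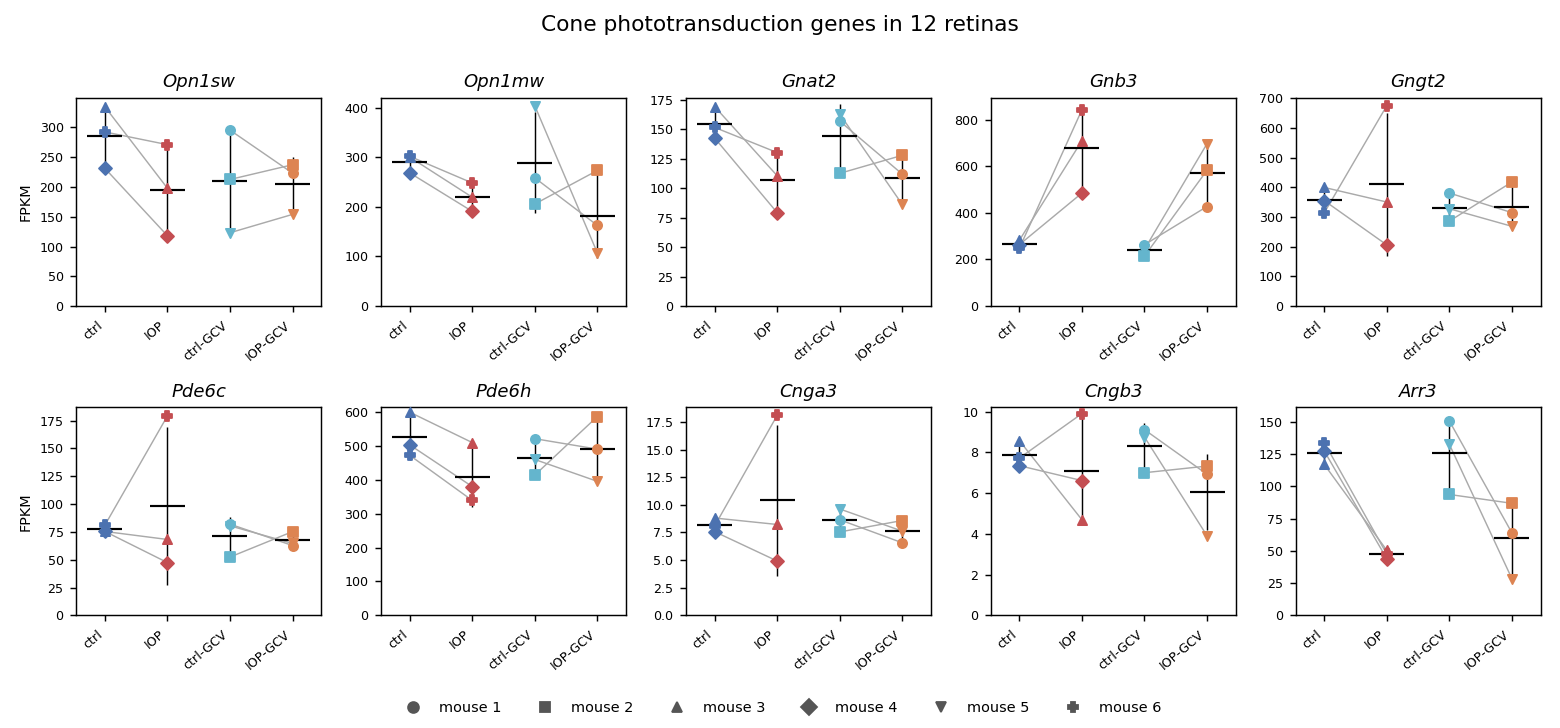
FPKM of each cone gene in the 12 retinas, on linear axes from 0, by group (ctrl, control; IOP, IOP-treated; each with and without GCV), with both eyes of a mouse joined by a line, horizontal bars for the group means and vertical bars for the SD (n = 3). Gnb3 lies between 428 and 843 FPKM in IOP-treated retinas and below 283 FPKM in controls, Arr3 is below its control eye in every mouse, and the IOP-treated retina of mouse 6 stands high for Gngt2, Pde6c and Cnga3.

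The cone opsins come first in the cascade. Opn1mw encodes the opsin tuned to middle wavelengths (M opsin) and Opn1sw the opsin tuned to short wavelengths (S opsin). Without GCV, Opn1mw was at 300.4, 269 and 302 FPKM in the control retinas of mice 3, 4 and 6 and at 219, 191 and 248 FPKM in their IOP-treated retinas. With GCV it was at 259, 206 and 404 FPKM in the control retinas of mice 1, 2 and 5 and at 163, 273 and 107 FPKM in their IOP-treated retinas. The IOP-treated retinas were all below the controls without GCV, while with GCV the ranges overlapped because mouse 2 was higher in the IOP-treated eye. The averaged log2 change of Opn1mw was -0.56 (SE 0.23), with a 95% interval from -1.07 to -0.06, and it did not pass the adjustment over all genes (limma, adjusted p = 0.125). Of 12 fits that left out 1 library it passed in 1, that without the IOP-treated retina of mouse 2 (log2 change -0.74, adjusted p = 0.0400).

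Opn1sw was at 335, 231 and 292 FPKM in the control retinas of mice 3, 4 and 6 and at 198, 118 and 271 FPKM in their IOP-treated retinas. In mice 1, 2 and 5, which received GCV, the control retinas had 296, 213 and 123 FPKM and the IOP-treated retinas 223, 237 and 154 FPKM. It was lower in the IOP-treated eye of the 3 mice without GCV and of mouse 1, and higher in mice 2 and 5, with overlapping ranges. The averaged log2 change was -0.29 (95% interval -0.86 to 0.27, limma adjusted p = 0.486). Exons of Opn1sw share 397 bases with Calu on the opposite strand, and Calu was at 51.0 to 77.9 FPKM in all libraries. The library kit keeps strand, but whether the counting used it is not given in the sources used here, so that these reads may be mixed.

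Because mouse cones can hold both opsins, the share of M opsin in the summed FPKM of Opn1mw and Opn1sw was also followed. It was 47.3%, 53.7% and 50.8% in the control retinas of mice 3, 4 and 6 and 52.6%, 61.8% and 47.8% in their IOP-treated retinas. In mice 1, 2 and 5 it was 46.7%, 49.2% and 76.6% in control and 42.1%, 53.5% and 41.0% in IOP-treated retinas. The control retina of mouse 5 stood apart from the other 11, which lay between 41.0% and 61.8%. The change from control to IOP-treated eye averaged 3.45 ± 5.75 percentage points without GCV (SD, n = 3), -11.9 ± 21.0 with GCV (n = 3) and -4.24 ± 16.1 over all mice (n = 6). In two-sided exact sign-flip tests these gave p = 0.5, 0.5 and 0.8125, where 3 mice cannot go below 0.25 and 6 mice cannot go below 0.03125. The changes with and without GCV did not differ beyond their spread (two-sided exact permutation test over 3 and 3 mice, p = 0.2, smallest possible p 0.1). Without both eyes of mouse 5 the change with GCV was -0.087 and that over all mice 2.03 percentage points. The size of the negative means thus rests on that mouse.

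**Figure D2:**
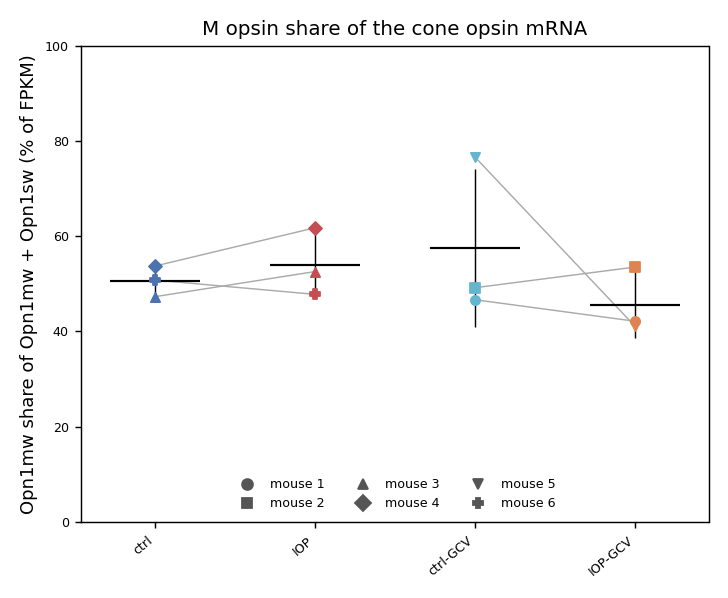
Opn1mw as a percentage of the summed FPKM of Opn1mw and Opn1sw in each retina by group, with both eyes of a mouse joined, horizontal bars for group means and vertical bars for the SD (n = 3). All retinas lie between 41.0% and 61.8% but for the control retina of mouse 5 at 76.6%.

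Cone transducin is built from Gnat2 (the alpha subunit that carries the signal), Gnb3 (beta) and Gngt2 (gamma). Gnat2 was at 169, 143 and 152 FPKM in the control retinas of mice 3, 4 and 6 and at 111, 79.3 and 130.2 FPKM in their IOP-treated retinas. In mice 1, 2 and 5, given GCV, the controls had 157, 113 and 163 FPKM and the IOP-treated retinas 112, 128 and 86.3 FPKM. The groups were separate without GCV and overlapped with GCV, where mouse 2 was again higher in the IOP-treated eye. Gnat2 came nearest to the threshold among the genes that missed it, with an averaged log2 change of -0.48 (SE 0.15, 95% interval -0.81 to -0.15, limma adjusted p = 0.0613). It passed when genes below 1 FPKM in 10 or more of the 12 libraries were left out of the test (adjusted p = 0.0455), after quantile normalization (adjusted p = 0.0168) and when the IOP-treated library of mouse 6 was dropped (adjusted p = 0.0436). It did not pass with the mouse as a block (adjusted p = 0.104), and it passed in 1 of 12 fits that left out 1 library, where the adjusted p reached 0.141.

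Gnb3, on chromosome 6 (GRCm38, chr6:124834240-124840275, minus strand), was at 283, 264 and 248 FPKM in the control retinas of mice 3, 4 and 6, and at 710.0, 485 and 843 FPKM in their IOP-treated retinas. In mice 1, 2 and 5 the controls had 263, 215 and 244 FPKM and the IOP-treated retinas 428, 583 and 697 FPKM. Every IOP-treated retina was above every control retina, with the smallest difference in mouse 1 and the largest in mouse 6. Over 6 retinas each, Gnb3 averaged 624 ± 155 FPKM (SD) after IOP elevation and 253 ± 23.2 FPKM in the controls. The log2 change was 1.32 (SE 0.23, limma adjusted p = 0.0251) without GCV, 1.22 (SE 0.23, adjusted p = 0.0284) with GCV and 1.27 (SE 0.16, 95% interval 0.91 to 1.63, adjusted p = 0.00149) averaged. Leaving out any 1 of the 12 libraries kept the averaged change between 1.18 and 1.38, and it passed in 12 of 12 such fits. Without GCV alone it passed in 1 of 6 such fits and with GCV in 2 of 6.

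Gnb3 is also the beta subunit used by ON bipolar cells, the second-order neurons that carry the signal onward. Of 10 bipolar cell genes, none passed the test in the averaged comparison (6 had an unadjusted p under 0.05 in limma), all 10 had negative changes and their median log2 change was -0.62. Their summed level was 682 to 909 FPKM in control eyes and 444 to 643 FPKM in IOP-treated eyes without GCV, and 797 to 953 FPKM in control eyes and 336 to 810 FPKM in IOP-treated eyes with GCV, and none of the 10 was at 0 throughout a group. These levels do not give the amount of Gnb3 within bipolar cells. The share of Gnb3 reads that came from cones was not measured.

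Gngt2 was at 399.6, 355 and 314 FPKM in the control retinas of mice 3, 4 and 6 and at 350.5, 206 and 675 FPKM in their IOP-treated retinas. The mice given GCV had 381, 286 and 328 FPKM in their control eyes and 315, 418 and 269 FPKM in their IOP-treated eyes. The direction differed between mice, with mouse 6 at 2.15 times and mouse 4 at 0.580 times the control eye. The averaged log2 change was 0.02 (95% interval -0.54 to 0.58, limma adjusted p = 0.972) and turned to -0.10 after quantile normalization and to -0.20 when the IOP-treated library of mouse 6 was dropped. Gngt2 shares 234 exon bases with Abi3 on the other strand, which was at 1.06 to 4.41 FPKM.

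The effector is a phosphodiesterase with Pde6c as the catalytic subunit and Pde6h as the inhibitory gamma subunit. Pde6c was at 75.4, 75.4 and 81.1 FPKM in the control retinas of mice 3, 4 and 6 and at 68.2, 47.4 and 179 FPKM in their IOP-treated retinas. In the mice with GCV the level was 82.0, 52.4 and 80.5 FPKM in control eyes and 62.8, 75.3 and 64.7 FPKM in IOP-treated eyes. The IOP-treated retina of mouse 6 was above the other 11 libraries, and the remaining IOP-treated retinas lay within or below the range of the controls. Its averaged log2 change was 0.03 (95% interval -0.58 to 0.63), or -0.25 without that retina (95% interval -0.56 to 0.06) and -0.06 after quantile normalization.

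Pde6h was at 600.2, 504 and 473 FPKM in the control retinas of mice 3, 4 and 6 and at 510.4, 380.4 and 339 FPKM in their IOP-treated retinas. The control eyes of mice 1, 2 and 5 had 522, 414 and 460.5 FPKM and their IOP-treated eyes 491, 587 and 396 FPKM. It was lower in the IOP-treated eye of 5 mice and higher in mouse 2, with overlapping ranges. The averaged log2 change was -0.15 (95% interval -0.48 to 0.18, limma adjusted p = 0.530). Its exons share 136 of 7846 bases with Arhgdib on the opposite strand, a gene that was at 109 FPKM in the IOP-treated retina of mouse 6 and 122 FPKM in that of mouse 5 and at 11.1 to 33.9 FPKM elsewhere.

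The channel that closes in light is formed by Cnga3 and Cngb3. Cnga3 was at 8.80, 7.57 and 8.07 FPKM in the control retinas of mice 3, 4 and 6 and at 8.22, 4.92 and 18.1 FPKM in their IOP-treated retinas. Under GCV the control eyes had 8.65, 7.54 and 9.63 FPKM and the IOP-treated eyes 6.57, 8.58 and 7.62 FPKM. As for Pde6c, mouse 6 alone was far above the rest, and the averaged log2 change of -0.01 (95% interval -0.53 to 0.52) became -0.23 without it (95% interval -0.53 to 0.06).

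Cngb3 was at 8.57, 7.34 and 7.72 FPKM in the control eyes of mice 3, 4 and 6 and at 4.69, 6.61 and 9.90 FPKM in their IOP-treated eyes. In mice 1, 2 and 5 the control eyes had 9.11, 7.0 and 8.75 FPKM and the IOP-treated eyes 6.92, 7.33 and 3.91 FPKM. It was lower in 4 mice and higher in mice 2 and 6, and the ranges overlapped. The averaged log2 change was -0.31 (95% interval -0.71 to 0.10, limma adjusted p = 0.291).

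Arr3 is cone arrestin, which binds light-activated cone opsin and ends its signal. It was at 117, 128 and 134 FPKM in the control retinas of mice 3, 4 and 6 and at 50.5, 44.0 and 47.6 FPKM in their IOP-treated retinas. In mice 1, 2 and 5, given GCV, the control eyes had 151, 93.8 and 133 FPKM and the IOP-treated eyes 64.1, 87.0 and 28.5 FPKM. All IOP-treated retinas were below all controls, but mouse 2, with the lowest control and the highest IOP-treated value, kept 0.927 of its control level, whereas the other 5 mice kept 0.215 to 0.431. Over 6 retinas each, Arr3 averaged 53.6 ± 19.9 FPKM (SD) after IOP elevation and 126 ± 19.2 FPKM in the controls. The log2 change was -1.40 (SE 0.33, limma adjusted p = 0.0710) without GCV, -1.17 (SE 0.33, adjusted p = 0.108) with GCV and -1.28 (SE 0.23, 95% interval -1.80 to -0.77, adjusted p = 0.00911) averaged, so that only the average over 6 mice passed. The averaged change stayed between -1.45 and -1.06 when each library was left out, and it passed in 12 of 12 such fits.

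The stretch upstream of Arr3 is shown because Arr3 was the cone gene that fell, and that of Opn1sw as an opsin beside it. The promoter of Opn1mw, the other opsin, was also found. It held none of the motifs named below and is not shown. CRX, the homeodomain factor of photoreceptors, binds sites with a TAAT core such as TAATCC, and nuclear receptors bind motifs such as AGGTCA. Promoters of 6 of the 10 cone genes (Opn1sw, Opn1mw, Arr3, Gnat2, Pde6h and Cnga3) were found in the RefSeq table of GRCm38.p6. Each line gives the 250 bases before the start site on the gene's own strand, chrX:100605247-100605496 (plus strand) for Arr3 and chr6:29380514-29380763 (minus strand) for Opn1sw, where capitals mark each TAATCT and, in Opn1sw, also the nuclear receptor motif AGGTCA on either strand (TGACCT when it lies on the other).
Arr3: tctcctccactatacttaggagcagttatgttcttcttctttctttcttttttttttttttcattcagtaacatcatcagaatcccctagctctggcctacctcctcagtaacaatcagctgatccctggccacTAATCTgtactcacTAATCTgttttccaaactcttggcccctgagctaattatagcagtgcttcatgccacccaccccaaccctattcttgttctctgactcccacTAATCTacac
Opn1sw: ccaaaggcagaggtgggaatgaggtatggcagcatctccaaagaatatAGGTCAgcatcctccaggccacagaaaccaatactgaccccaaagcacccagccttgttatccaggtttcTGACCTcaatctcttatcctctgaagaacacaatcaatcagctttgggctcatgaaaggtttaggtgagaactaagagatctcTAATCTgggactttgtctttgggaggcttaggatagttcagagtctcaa
In both strands of these windows, TAATCC was found in 1 of the 6 genes (Gnat2), beside 7.21% of all genes with a promoter, and AGGTCA in 1 of 6 (Opn1sw, with 2 copies), beside 15.8% of all genes. TAATCT, which was searched only after these sequences had been seen, stands 3 times upstream of Arr3, the nearest copy 10 to 5 bases before the start, and once upstream of Opn1sw. At least 3 copies were found in 13 of 32851 promoters (0.0396%) and at least 1 in 7.31%. The motifs do not overlap each other in the stretches shown. These matches describe the sequence and were not set against the expression values.

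**Figure D3:**
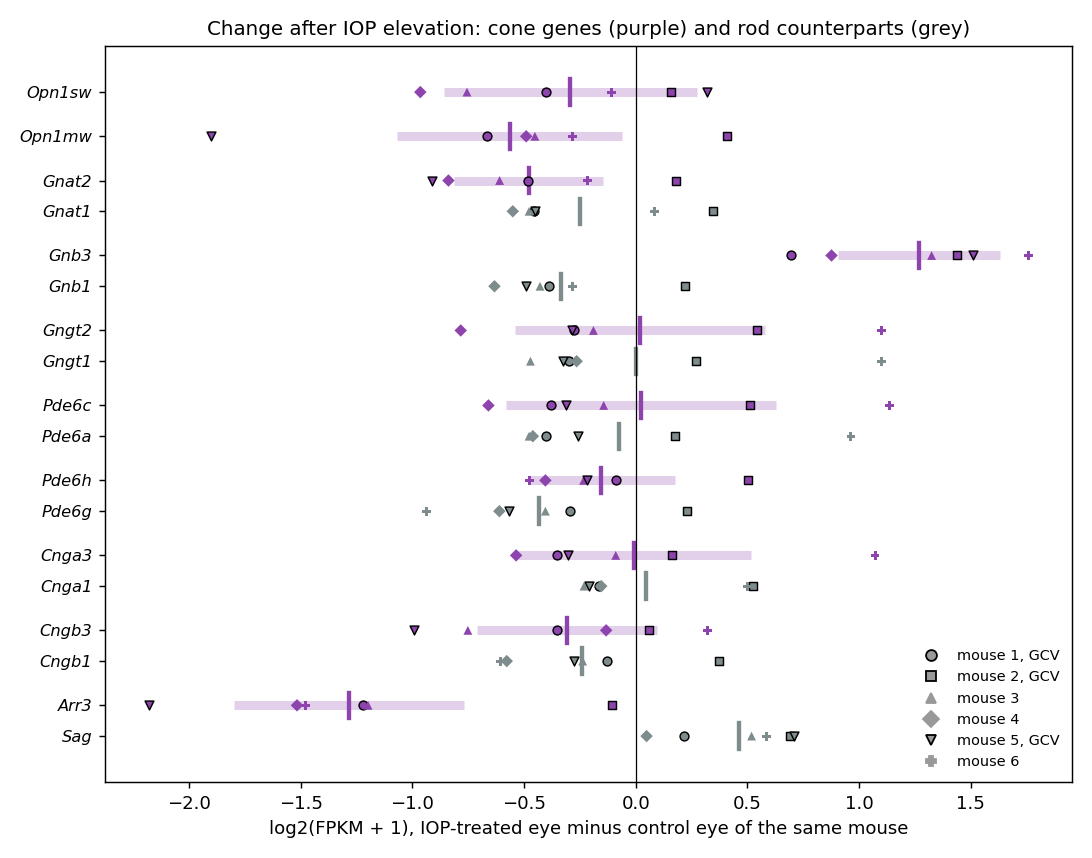
Change from the control to the IOP-treated eye in log2(FPKM + 1) for each mouse, for the cone genes (purple) and, for 8 of them, a rod gene with the same role (grey), with vertical bars for the mean over 6 mice and shaded bars for the 95% interval of the averaged limma fit (cone genes). Gnb3 lies right of 0 and Arr3 left of 0 in every mouse, while the rod genes in the same roles, Gnb1 and Sag, lie mostly on the other side.

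The rod genes in the same roles were set beside the cone genes. None of the 10 rod genes passed the averaged test, in which the spread assigned to such abundant genes was wide (0 had an unadjusted p under 0.05 in limma). Without the variance trend 1 of them passed, Sag (rod arrestin), at a log2 change of 0.46 (adjusted p = 0.0415), with 6 of 6 mice higher. Sag and Arr3 thus had opposite signs in every mouse, and Arr3 went from 2.60% of the Sag level in control retinas to 0.798% in IOP-treated retinas. Gnb1, the rod beta subunit, had an averaged log2 change of -0.33 and was lower in 5 of 6 mice, while Gnb3 went from 8.56% to 26.4% of its level. In the fit without the trend, Gnb1 and Pde6g (the rod counterpart of Pde6h, log2 change -0.43) had an unadjusted p under 0.05 (limma). Both were lower and did not pass.

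Over 9 pairs of a cone and a rod gene, the change of the cone gene minus that of the rod gene was 1.60 ± 0.40 for Gnb3 and Gnb1 (log2, SD, n = 6) and -1.75 ± 0.70 for Arr3 and Sag. It was -0.23 ± 0.15 for Gnat2 and Gnat1 and 0.28 ± 0.11 for Pde6h and Pde6g, with 1 sign in 6 of 6 mice for each of these 4 pairs. Each had p = 0.03125 in a two-sided exact sign-flip test, the smallest that 6 mice can give, and 0.0703 after Benjamini-Hochberg adjustment over the 9 pairs, so that none passed. For the other 5 pairs the exact p was 0.28125 or more, among them Gngt2 beside Gngt1 and both channel subunits.

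The cone genes moved unevenly from mouse to mouse. The median change of the 10 genes was -0.37 in mouse 1, -0.34 in mouse 3, -0.60 in mouse 4 and -0.31 in mouse 5, with 8 or 9 of the 10 genes lower in each of these mice. In mouse 2 it was 0.30, with 1 of 10 lower, and in mouse 6 it was 0.11, with 5 of 10 lower. The rod genes had medians of -0.30, 0.29, -0.42, -0.54, -0.38 and -0.10 in mice 1 to 6, near those of the cone genes in every mouse but mouse 6. Over genes of at least 1 FPKM the median change lay within 0.03 of 0 in each mouse.

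**Figure D4:**
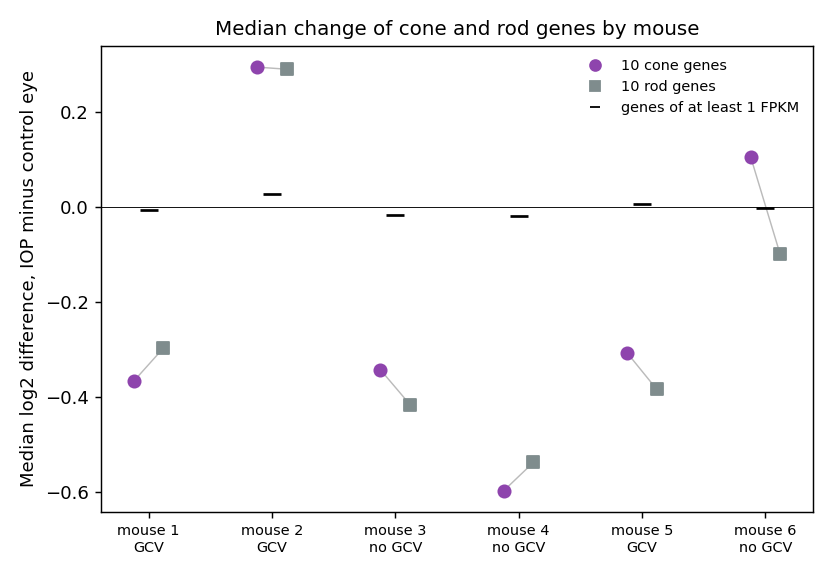
Median difference between the IOP-treated and the control eye in log2(FPKM + 1) for the 10 cone genes, the 10 rod genes and genes of at least 1 FPKM, by mouse. The cone and rod medians lie below 0 together in mice 1, 3, 4 and 5 and above 0 together in mouse 2, and on either side of 0 in mouse 6.

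The IOP-treated retina of mouse 6 set much of the spread. There 9 of the 10 cone genes were above their group mean, against 0 of 10 in the IOP-treated retina of mouse 4, and Gngt2, Pde6c and Cnga3 were at 2.15, 2.21 and 2.24 times the control eye. It was the highest of the 12 libraries for 5 of the 10 cone genes and the lowest for 1, Pde6h. Of 53 genes in the other photoreceptor lists it was the highest library for 21 and the lowest for 8. Pdc was at 19061 FPKM there beside 3693 to 8650 FPKM elsewhere and Pde6a at 2493 FPKM beside 833 to 1446 FPKM, whereas Pde6g was at 2650 FPKM beside 2887 to 5897 FPKM and Prph2 at 1419 FPKM beside 1837 to 3874 FPKM. This library also had the fewest estimated fragments, and the part of depth was not tested. The IOP-treated retina of mouse 2 had 10 of 10 cone genes above the mean of its group, and the control retina of the same mouse had 1 of 10.

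Levels of the cone genes were also compared across all 12 libraries, as a description only, since the points share their mice and groups. Pde6c, Cnga3 and Gngt2 varied together (Pearson r = 0.948 for Pde6c and Cnga3, 0.914 for Gngt2 and Cnga3, 0.911 for Gngt2 and Pde6c), in which the IOP-treated retina of mouse 6 was the highest point of each. Arr3 and Gnat2 had r = 0.858, and Arr3 and Gnb3 had r = -0.846. Among 12897 genes of at least 1 FPKM on average, those most like the mean of the 10 standardized cone genes were Gnat1 (rod transducin alpha, r = 0.967), Ap2a2 (0.960), Grtp1 (0.947), Sgk1 (0.941) and Fam3c (0.940).

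To ask whether GCV altered these responses, the change with GCV was set against the change without it. None of the 10 genes passed (limma, 0 at an unadjusted p under 0.05), where 0% of all genes passed and 358 genes had an unadjusted p under 0.05. The difference was -0.11 for Gnb3 (95% interval -0.83 to 0.62) and 0.23 for Arr3 (95% interval -0.81 to 1.26), so that sizeable differences in either direction remain within both intervals. The largest difference was that of Opn1sw, 0.63 (95% interval -0.50 to 1.77), followed by Pde6h at 0.44 (95% interval -0.22 to 1.09). The median difference of the 10 genes was -0.08, and it turned to 0.27 when the IOP-treated library of mouse 6 was dropped.

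GCV against no GCV within IOP-treated retinas passed for none of the 10 genes (limma, 0 at an unadjusted p under 0.05), where 0% of all genes passed and 774 had an unadjusted p under 0.05. Gnb3 differed by -0.25 (95% interval -0.76 to 0.27), Arr3 by 0.20 (95% interval -0.53 to 0.93) and Opn1mw, the largest, by -0.37 (95% interval -1.08 to 0.34). In control retinas none passed either (limma, 0 at an unadjusted p under 0.05), where 0% of all genes passed and 295 had an unadjusted p under 0.05. There the largest difference was that of Opn1sw at -0.51 (95% interval -1.31 to 0.29). These comparisons share their retinas with those of IOP elevation above, and intervals of this width leave room for changes that 3 mice per group could not show.

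**Figure D5:**
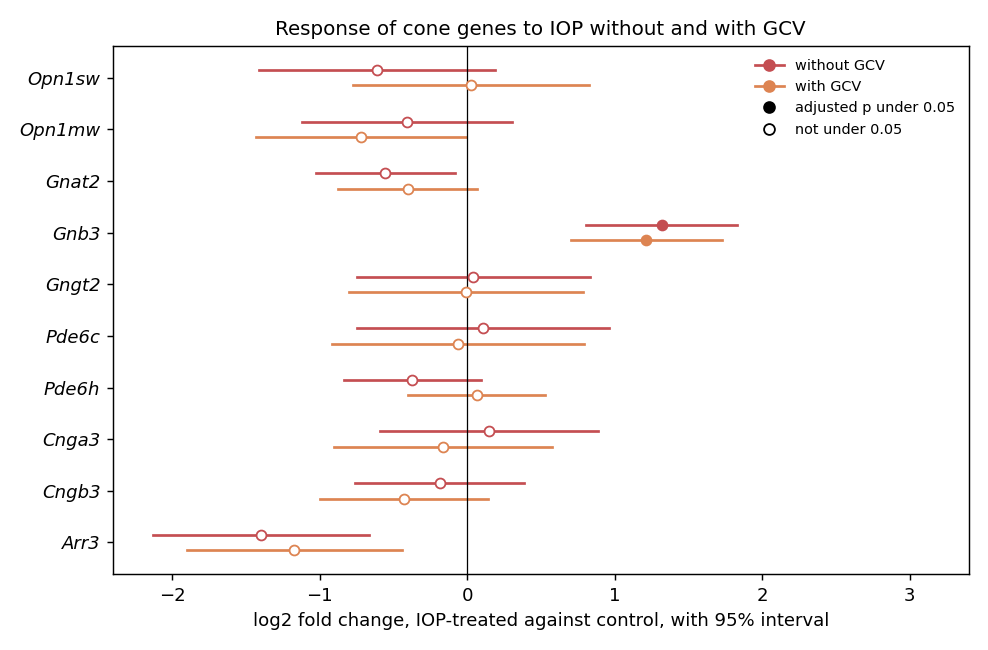
Log2 fold change of each cone gene between IOP-treated and control retinas without GCV (red) and with GCV (orange) from limma, with 95% intervals and filled points for an adjusted p under 0.05. Gnb3 is filled in both, at 1.32 and 1.22, and the paired intervals overlap for all 10 genes.

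The genes that work around the cascade were summarised from lists in the averaged comparison, in which 12.2% of all genes passed (6.76% higher and 5.44% lower). Among the genes for shut-off and calcium feedback, which cones and rods share, the most abundant, Pdc (phosducin) and Unc119, had log2 changes of -0.22 and -0.31 that did not pass. Of 11 photoreceptor transcription factors 1 passed and was higher, Neurod1, from 222 ± 21.3 to 449 ± 272 FPKM (SD, n = 6 each, log2 change 0.86, limma adjusted p = 0.0465, or 0.0698 with the mouse as a block). It was higher in 6 of 6 mice and reached 998 FPKM in the IOP-treated retina of mouse 6, beside 274 to 385 FPKM in the other IOP-treated retinas, and it passed in 2 of 12 fits that left out 1 library. Crx had a log2 change of -0.05 and Nrl, the factor that sets rod fate, one of -0.53 (adjusted p = 0.0776).

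Of 15 genes for outer segment structure and retinoid handling 1 passed and was higher, where 12.2% of all genes passed. This was Impg2, a proteoglycan of the matrix around photoreceptors. It was at 86.6 to 127 FPKM in the 6 control and at 157 to 307 FPKM in the 6 IOP-treated retinas, higher in 6 of 6 mice, with a log2 change of 1.00 (SE 0.18, limma adjusted p = 0.00827, or 0.0135 with the block). It passed in 12 of 12 fits that left out 1 library. The most abundant genes of this list, Prph2 and Rom1, had log2 changes of -0.48 and -0.22 that did not pass.

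Genes of other lists moved in the same comparison, in which 12.2% of all genes passed. Of the lists for inner retina, 8 of 9 ganglion cell genes and 5 of 9 amacrine and horizontal cell genes passed as lower. In a joint list for reactive glia and stressed photoreceptors, which holds Edn2 and Fgf2, 9 of 9 genes passed as higher. Among microglia genes 8 of 10 passed as higher, and 3 of 8 Mueller glia genes passed (1 higher and 2 lower). With the mouse as a block 2 of the 9 ganglion cell genes and 1 of the 8 Mueller glia genes passed. Of 20 lens genes tested 11 passed as higher, while none of 10 pigment epithelium genes and none of 6 blood genes passed (limma, 0 of each at an unadjusted p under 0.05). Since FPKM are relative to the whole library, a changed share of other cells also moves the level of a cone gene, and the part of this in the values of the 10 genes was not tested.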

How the data were processed

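RNA-seq libraries were made with a stranded TruSeq kit from 1 retina each and read as pairs on a HiSeq4000. The study's methods name HOMER counts over exons of RefSeq genes, the labels name Bowtie2, TopHat2, Cufflinks, Cuffdiff and the build mm10 without versions, and the authors deposited 1 table of values for 24340 gene symbols that behave as FPKM, with no counts. No column was left unused. Of the table's names 27 had turned into dates.

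The log2 of FPKM plus a pseudocount of 1 was fitted by limma (3.58.1, R 4.3.3) with the means of the 4 groups over all 12 libraries, a variance trend and Benjamini-Hochberg adjustment over the 18509 genes above 0 in at least 1 library, calling at 0.05. Fold changes on this scale understate those of low genes. The code of the fit was run on simulated data as a check, the outcome of which is not given here. Both eyes of a mouse carry 1 number, and the correlation of their deviations from the group means was -0.124 to 0.417, so the mouse was added as a replicate block in an alternative fit. Fragments were estimated from low values of 2243 genes with a single transcript of at least 1500 bases, of which 75.4% to 80.0% lay within 0.1 of a whole number. Overlaps and positions came from GENCODE M21. The members, lists and motifs were chosen with earlier results of these data known, and TAATCT after the promoters had been read. All 10 members were named in every comparison, and of other lists the 2 most abundant genes and up to 3 called genes, with Sag, Gnb1, Pde6a and Pde6g added after their values were seen. Values of 2 genes of these lists are not reported here, and pairs with them were left out. The 5 genes most like the members were ranked by Pearson correlation. Python 3.11.15, numpy 2.4.6, pandas 2.3.3 and matplotlib 3.10.9 were used for tables and figures.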

Additional observations from a re-analysis of the deposited data

Results flagged for a closer look

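Among 22 sets of 6 retinas (each of the 10 cone genes and the M opsin share, in control and in IOP-treated retinas), 4 held a retina whose distance from its nearest neighbor was over 0.625 of the whole range, where about 1 in 20 sets does so by chance. Pde6c was low in the control retina of mouse 2, which had received GCV, at 52.4 FPKM. Pde6c was high in the IOP-treated retina of mouse 6 at 179.3 FPKM, and so was Cnga3 in the same library at 18.08 FPKM. The M opsin share was high in the control retina of mouse 5, which had received GCV, at 76.63%, where Opn1sw was at 123 FPKM, the lowest of the control retinas, and Opn1mw at 404 FPKM, the highest of all 12.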

How the results depend on the processing

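Averaged over the 6 mice, Gnb3 and Arr3 passed under every alternative run: a pseudocount of 0.1, a minimum of 1 FPKM in 3 libraries, the mouse as a replicate block, median-ratio scaling, quantile normalization, no variance trend, group-specific weights and each library left out. Gnat2 joined them under the minimum of 1 FPKM and after quantile normalization, for 3 genes called, and when the IOP-treated retina of mouse 6 was left out. Of all genes, 2645 of 13411 passed under that minimum and 2960 of 18509 after quantile normalization, beside 2258 of 18509 in the main fit. Opn1mw joined Gnb3 and Arr3 when the IOP-treated retina of mouse 2 was left out. The comparisons of 3 mice were less stable. Without GCV the number of cone genes called went from 1 to 2 with the minimum of 1 FPKM (Arr3 joined), to 0 with the replicate block and to 0 with group-specific weights, and lay between 0 and 1 when a library was left out. In a fit of only the groups compared it was 1, but the gene was Arr3 (adjusted p = 0.0186) and no longer Gnb3 (adjusted p = 0.0926). Of all genes, 306 of 18509 passed in the main fit without GCV and 356 of 13411 with the minimum of 1 FPKM. Of the 18509, 75 passed with the replicate block, 63 with group-specific weights and 185 with only the groups compared. With GCV the number of cone genes called was 0 with only the groups compared, 0 with the replicate block and 2 with group-specific weights (Arr3 joined). It was 0 to 2 when a library was left out. Of all 18509 genes, 7 passed with only the groups compared, 144 with the replicate block and 1477 with group-specific weights. In the main fit with GCV 334 passed. The replicate block changed no other call of a cone gene, and the cause of these changes was not tested.

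Reversals of sign concerned only changes that had not passed. Quantile normalization gave -0.12 for Gngt2 and -0.011 for Pde6c without GCV, -0.039 for Opn1sw and -0.017 for Pde6h with GCV, -0.10 for Gngt2 and -0.057 for Pde6c averaged, and 0.041 for Gngt2 in the difference of the IOP changes. The other ranges come from leaving out each library in turn. Without GCV the change was -0.40 to 0.46 for Gngt2, -0.44 to 0.51 for Pde6c, -0.31 to 0.54 for Cnga3 and -0.43 to 0.040 for Cngb3. With GCV it was -0.31 to 0.31 for Opn1sw, -0.18 to 0.14 for Gngt2, -0.27 to 0.051 for Pde6c and -0.072 to 0.21 for Pde6h. Averaged it was -0.20 to 0.22 for Gngt2, -0.25 to 0.23 for Pde6c and -0.23 to 0.19 for Cnga3. The difference of the IOP changes was -0.66 to 0.011 for Opn1mw, -0.11 to 0.68 for Arr3, -0.046 to 0.31 for Gnat2, -0.33 to 0.087 for Gnb3, -0.46 to 0.39 for Gngt2, -0.57 to 0.38 for Pde6c, -0.70 to 0.14 for Cnga3 and -0.47 to 0.0011 for Cngb3, and its median over the 10 genes -0.29 to 0.27, the highest without the IOP-treated retina of mouse 6. GCV against no GCV in IOP-treated retinas gave -0.20 to 0.39 for Opn1sw, -0.14 to 0.65 for Arr3, -0.16 to 0.19 for Gnat2, -0.57 to 0.29 for Gngt2, -0.71 to 0.24 for Pde6c, -0.63 to 0.21 for Cnga3 and -0.41 to 0.061 for Cngb3. In control retinas it gave -0.33 to 0.16 for Opn1mw, -0.17 to 0.17 for Arr3, -0.21 to 0.053 for Gnat2, -0.25 to 0.071 for Pde6c, -0.0092 to 0.15 for Cnga3 and -0.0052 to 0.16 for Cngb3. Group-specific weights and the other alternatives left the number of cone genes called for GCV at 0.

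The table holds no counts, so that intervals for single values were not computed, and the fewest estimated fragments behind a value were 84 for Cnga3, 119 for Arr3 and 155 for Cngb3. Each group is 3 mice. Lens RNA (in all mice but mouse 1) was higher in the IOP-treated eye. So were the summed genes of reactive glia and stressed photoreceptors and those of microglia. These rises cannot be told apart from the other consequences of the procedure here.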
